A study of Mus musculus with 38 samples.

Results

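The interferon-gamma receptor, its Janus kinases and a group of their target genes were followed in mouse kidneys and kidney slices given FGF23, the phosphate-regulating hormone fibroblast growth factor 23. The 8 genes were Ifngr1, Ifngr2, Jak1, Jak2, Irf1, Irf8, Socs1 and Cd274, which encodes the checkpoint ligand PD-L1, out of 55487 genes in the count table. They were found by symbol, each in 1 row of the table. They had been selected on measured values as well as on the pathway: the responses to FGF23 in the anti-GBM experiment, and the difference between diseased and healthy mice under FGF23, were known when the 8 were named. Values from these comparisons are therefore given as a description, without a p-value, whereas the disease effect under vehicle, the Adriamycin experiment and the slices were tested.

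Interferon-gamma, a cytokine made mainly by T cells and NK cells, binds a receptor of the ligand-binding chain IFNGR1 and the signalling chain IFNGR2. JAK1, bound to the ligand-binding chain, and JAK2, bound to the signalling chain, then start a phosphorylation signal that ends at GAS elements in the promoters of target genes. IRF1 and IRF8 are transcription factors induced in this way, with IRF8 also needed to build dendritic cells and monocytes, while SOCS1 is induced as a brake on the kinases. PD-L1, which can be induced by IRF1 in many cell types including tubular epithelium, binds PD-1 on T cells and dampens them.

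The data were 38 bulk RNA-Seq libraries in 10 groups of 3 experiments. In the anti-GBM experiment, male C57BL/6JRj mice were 8 weeks old at induction and 10 weeks old at dissection. The diseased mice had been immunised with sheep IgG in Freund's adjuvant and then given nephrotoxic serum, an antiserum against the glomerular basement membrane, and the healthy controls had received PBS. Both received recombinant human FGF23 (1 µg intravenously per day, 6 injections) or vehicle, in 4 healthy vehicle, 3 healthy FGF23, 4 anti-GBM vehicle and 3 anti-GBM FGF23 mice. In the Adriamycin experiment, female BALB/c mice of 8 weeks at induction and 10 weeks at dissection, healthy or with Adriamycin nephropathy (injury by a drug toxic to podocytes), received 1 injection of FGF23 (1 µg) or vehicle, with 4 mice in each of the 4 groups. RNA came from a fragment of a kidney removed 24 h later than the final dose. In the third experiment, precision-cut kidney slices (PCKS) from male DBA/2J mice fed 0.2% adenine and dissected at 23 weeks of age were kept in medium with FGF23 or vehicle, with 4 cultures per group and no disease-free slices. The labels give 1 h of treatment for the slices whereas the study's text gives 24 h, and no source used here says whether same-numbered cultures came from the same mouse. Strain, disease and dosing differed between all 3 experiments. Sex differed between the Adriamycin experiment and the others, and age at dissection between the slices and the whole kidneys. What differed between experiments cannot be told apart across them.

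Total counts ranged from 13704248 to 23630210 per library in the anti-GBM experiment, from 15665050 to 27583911 in the Adriamycin experiment and from 11186925 to 16254987 in the slices. All 8 genes passed the low-count filter in every experiment. Levels are CPM, counts relative to the total of the library after TMM scaling. The kidney label was checked on 5 tubular markers (Lrp2, Slc34a1, Umod, Slc12a3, Aqp2), which summed to 9814 to 15174 CPM in the whole kidneys and to 1888 to 6362 CPM in the slices. The summed level of 27 leukocyte markers was 120 to 335 CPM in the whole kidneys and 407 to 600 CPM in the slices, and the neutrophil marker Ly6g had 0 to 4 counts in every library. In bulk tissue, fewer cells of a type and less RNA per cell cannot be told apart. Interferon-gamma itself was barely counted: Ifng had 0 to 2 counts in every library, so its level could not be compared at this depth.

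The promoters of the 4 target genes are shown because their start regions hold the letters of known interferon-response elements. Each line gives the 250 bases before the RefSeq transcription start in the GRCm38.p6 build, 5′ to 3′ on the gene's strand, with matches to TTCNNNGAA (GAS) or GAAANNGAA (core of the interferon-stimulated element) on either strand in capitals.
Irf1 (chr11:53769764-53770013, + strand): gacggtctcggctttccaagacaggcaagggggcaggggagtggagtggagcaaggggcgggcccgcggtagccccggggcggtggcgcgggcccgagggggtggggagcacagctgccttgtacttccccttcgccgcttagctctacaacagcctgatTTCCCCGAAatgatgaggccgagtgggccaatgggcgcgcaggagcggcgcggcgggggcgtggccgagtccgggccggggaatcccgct
Irf8 (chr8:120736108-120736357, + strand): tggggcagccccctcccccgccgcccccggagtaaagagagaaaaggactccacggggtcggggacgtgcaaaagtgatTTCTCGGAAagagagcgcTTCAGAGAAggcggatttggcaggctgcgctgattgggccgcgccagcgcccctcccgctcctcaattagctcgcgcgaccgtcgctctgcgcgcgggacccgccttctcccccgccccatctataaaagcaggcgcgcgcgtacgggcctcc
Socs1 (chr16:10785537-10785786, - strand): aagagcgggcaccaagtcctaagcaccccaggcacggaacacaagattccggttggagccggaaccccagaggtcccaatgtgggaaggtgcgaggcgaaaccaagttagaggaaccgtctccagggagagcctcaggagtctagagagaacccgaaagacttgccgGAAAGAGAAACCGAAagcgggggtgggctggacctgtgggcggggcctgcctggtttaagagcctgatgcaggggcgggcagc
Cd274 (chr19:29367188-29367437, + strand): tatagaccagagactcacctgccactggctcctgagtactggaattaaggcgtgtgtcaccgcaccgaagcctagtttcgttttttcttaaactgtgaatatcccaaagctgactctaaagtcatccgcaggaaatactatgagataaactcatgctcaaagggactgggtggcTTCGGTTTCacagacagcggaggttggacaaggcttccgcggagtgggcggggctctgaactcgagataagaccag
Irf1 held 1 GAS match, TTCCCCGAA, from 90 to 82 bases before the start. Irf8 held 2 GAS matches, TTCTCGGAA and TTCAGAGAA. Socs1 held 2 matches to the element core, GAAAGAGAA and GAAACCGAA, which overlap each other. Cd274 held 1 match to the element core on the opposite strand, printed as TTCGGTTTC, from 76 to 68 bases before the start, and no GAS match. The windows of Ifngr1, Ifngr2, Jak1 and Jak2, and those of the second start site that the table lists for Irf1 and Irf8, held neither. Of all 32851 windows of this length in the table, 7.02% held a GAS match, 7.13% an element core and 0.752% both. A match is a description of the letters and not a measured site.

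Cd274 (chromosome 19, 29367455 to 29388095) starts 54.4 kb downstream of the end of Jak2 on the same strand. Whether the counting used strand is not given in the sources used here, so antisense genes that overlap a member were inspected: Gm17334 within Irf1 had 0 to 13 counts per library and AC119228.1 within Cd274 had 0 to 3. Raver2, whose end overlaps the end of Jak1 on the opposite strand, had 34 to 176 counts per library against 2174 to 7713 for Jak1.

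Compared per kilobase of exon, the brake Socs1 was the least abundant of the 8 transcripts in all 10 groups, and in the healthy mice given vehicle the kinases and receptor chains had the highest means. In healthy vehicle-treated kidneys of the anti-GBM experiment, Jak1 led with 25.1 CPM per kb, followed by Ifngr1 with 13.3 and Jak2 with 9.67. Ifngr2 at 7.31 CPM per kb and Irf1 at 5.57 came next, and the ranges of these neighbours overlapped. Irf8 at 2.94, Cd274 at 2.08 and Socs1 at 0.293 CPM per kb completed the order, each without overlap with the next. The order in the healthy vehicle-treated kidneys of the Adriamycin experiment differed in that Jak2 (13.8 CPM per kb) stood above Ifngr1 (10.97 CPM per kb), without overlap. In the slices Cd274 moved up the order: at 24.3 CPM per kb under vehicle it stood beside Ifngr2 at 23.8, their ranges overlapping, and above Irf8 at 8.02. Irf1, at 33.7 CPM per kb, had a mean between theirs and that of Jak2 at 34.6, and its range overlapped those of all 3. In anti-GBM mice given FGF23, Irf1 at 15.4 CPM per kb had a higher mean than Ifngr2 at 11.8, their ranges overlapping, and than Jak2 at 9.02.

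**Figure D1:**
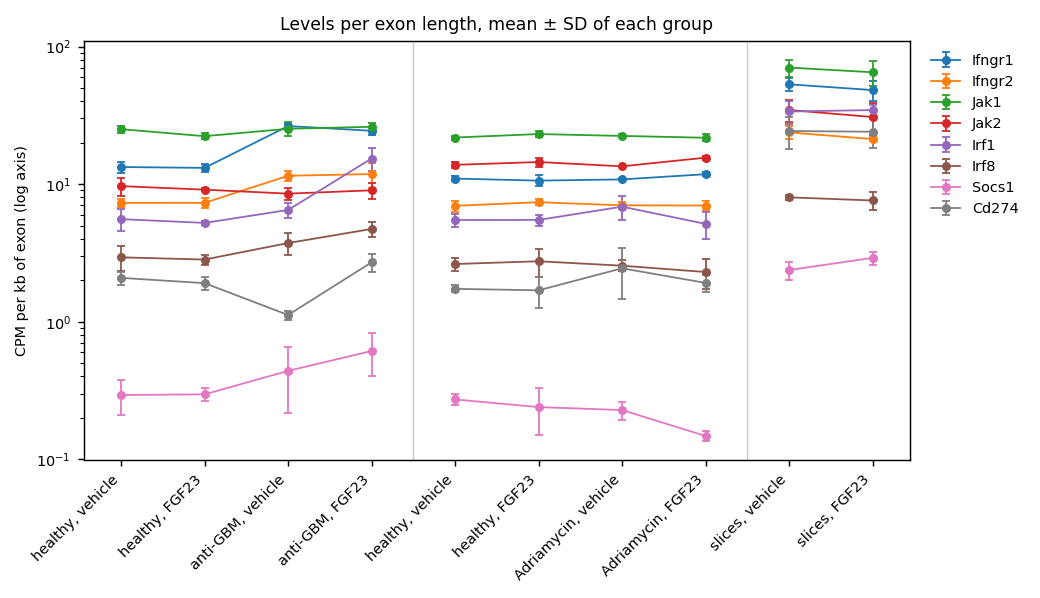
Mean level of each gene per kilobase of exon (CPM per kb, log axis) in the 10 groups, with the SD over libraries as bars and thin lines dividing the experiments. Socs1 is lowest in every group, at 0.293 CPM per kb in healthy vehicle-treated mice of the anti-GBM experiment, and Cd274 is at 24.3 CPM per kb in vehicle-treated slices against 2.08 in those mice.

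The difference between the disease model and healthy controls without FGF23 was read from the mice given vehicle. The paper names sheep IgG in Freund's adjuvant for the disease model and only PBS for the controls. On that reading the immunisation and the kidney disease cannot be told apart here. In the anti-GBM mice the receptor was more abundant and PD-L1 mRNA less abundant than in healthy mice, while the kinases and the transcription factors did not pass the test. Of the 8 genes 3 were called at an adjusted p below 0.05, 2 higher and 1 lower, where 39.8% of all 15859 tested genes were called, 19.4% higher and 20.4% lower, so the share of the 8 was near the background. The 4 anti-GBM vehicle libraries and the healthy vehicle libraries also belong to the FGF23 comparisons and the interaction known when the genes were named. The interaction subtracts this disease effect, so choosing a gene with a high interaction favours a low value here. The p-values of this comparison are therefore not free of the choice of genes.

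Ifngr1, the ligand-binding chain, stood at 38.3, 35.1, 42.7 and 35.4 CPM in the healthy mice and at 72.3, 78.7, 73.3 and 76.5 CPM in the anti-GBM mice. The lowest diseased mouse was far above the highest healthy one. The log2 fold change was 0.99 ± 0.08 (SE), a 1.98-fold rise (adjusted p = 1.66e-06, edgeR). Ifngr2, the signalling chain, was at 26.7, 29.1, 29.1 and 25.2 CPM in healthy mice and at 39.1, 41.8, 48.0 and 44.4 CPM in anti-GBM mice. These groups did not overlap either, with a log2 fold change of 0.65 ± 0.11 (SE; adjusted p = 0.000516), a 1.57-fold rise.

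Neither kinase passed the test. Jak1 averaged 181 ± 11.3 CPM (SD, n = 4) in healthy and 183 ± 20.6 CPM (SD, n = 4) in anti-GBM mice, a log2 difference of 0.01 ± 0.09 (SE; adjusted p = 0.936). Jak2 averaged 48.6 ± 7.08 CPM (SD, n = 4) and 42.9 ± 4.11 CPM (SD, n = 4), a log2 difference of -0.18 ± 0.11 (SE; adjusted p = 0.197). The groups overlapped for both.

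Among the transcription factors and the brake, every log2 difference was above 0 and none passed the threshold. Irf1 averaged 22.1 ± 3.99 CPM in healthy and 25.8 ± 3.33 CPM in anti-GBM mice (SD, n = 4 each), with a log2 difference of 0.22 ± 0.14 (SE; adjusted p = 0.223). Irf8 was at 17.9, 17.7, 20.5 and 26.7 CPM against 29.3, 31.5, 22.8 and 21.7 CPM, with a log2 difference of 0.35 ± 0.15 (SE; adjusted p = 0.0754). Its call depended on the settings: without a count filter it reached an adjusted p of 0.0473, without the healthy mouse NTS4 0.0108 and without the anti-GBM mouse NTS8 0.0285, in a range of 0.0108 to 0.212 over all alternatives. Socs1 had only 12 to 31 counts per library in these groups, and its log2 difference of 0.57 ± 0.35 (SE; adjusted p = 0.212) was not detectable at this depth.

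Cd274 went the other way from the receptor. It stood at 7.41, 7.36, 6.73 and 8.67 CPM in healthy mice and at 4.03, 4.50, 3.80 and 3.88 CPM in anti-GBM mice. Every diseased mouse was below every healthy mouse. The level fell to 0.538 of the healthy one, a log2 fold change of -0.89 ± 0.13 (SE; adjusted p = 0.000204), with 54 to 79 counts per diseased library. With any 1 of the 14 libraries of the experiment left out the log2 fold change stayed between -0.94 and -0.78, with an adjusted p of at most 0.00116. Because the interaction was known when Cd274 was chosen, which favours a fall here, these p-values are not free of that choice.

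The summed levels of leukocyte, endothelial and tubular markers differed between the same groups. The summed level of the 27 leukocyte markers was 125 to 143 CPM in healthy and 221 to 332 CPM in anti-GBM vehicle mice. Of the 23 tested 11 were called higher and 1 lower, beside 19.4% and 20.4% of all tested genes. The macrophage and monocyte markers made up most of that sum, with 93.1 to 115 CPM against 181 to 283 CPM. The 4 endothelial markers summed to 312 to 322 CPM against 222 to 293 CPM, and the 5 tubular markers to 13594 to 15174 CPM against 9814 to 12135 CPM. The neutrophil markers S100a8 and S100a9 were called higher, by 4.39 and 3.69 on the log2 scale, while Ly6g had 0 to 4 counts. Of the tubular and the endothelial markers 1 each was called lower. The single tubular markers ran from -0.67 to 0.72 on the log2 scale, with a median of -0.03, so they did not move together. The part of cell composition in these changes was not tested.

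**Figure D2:**
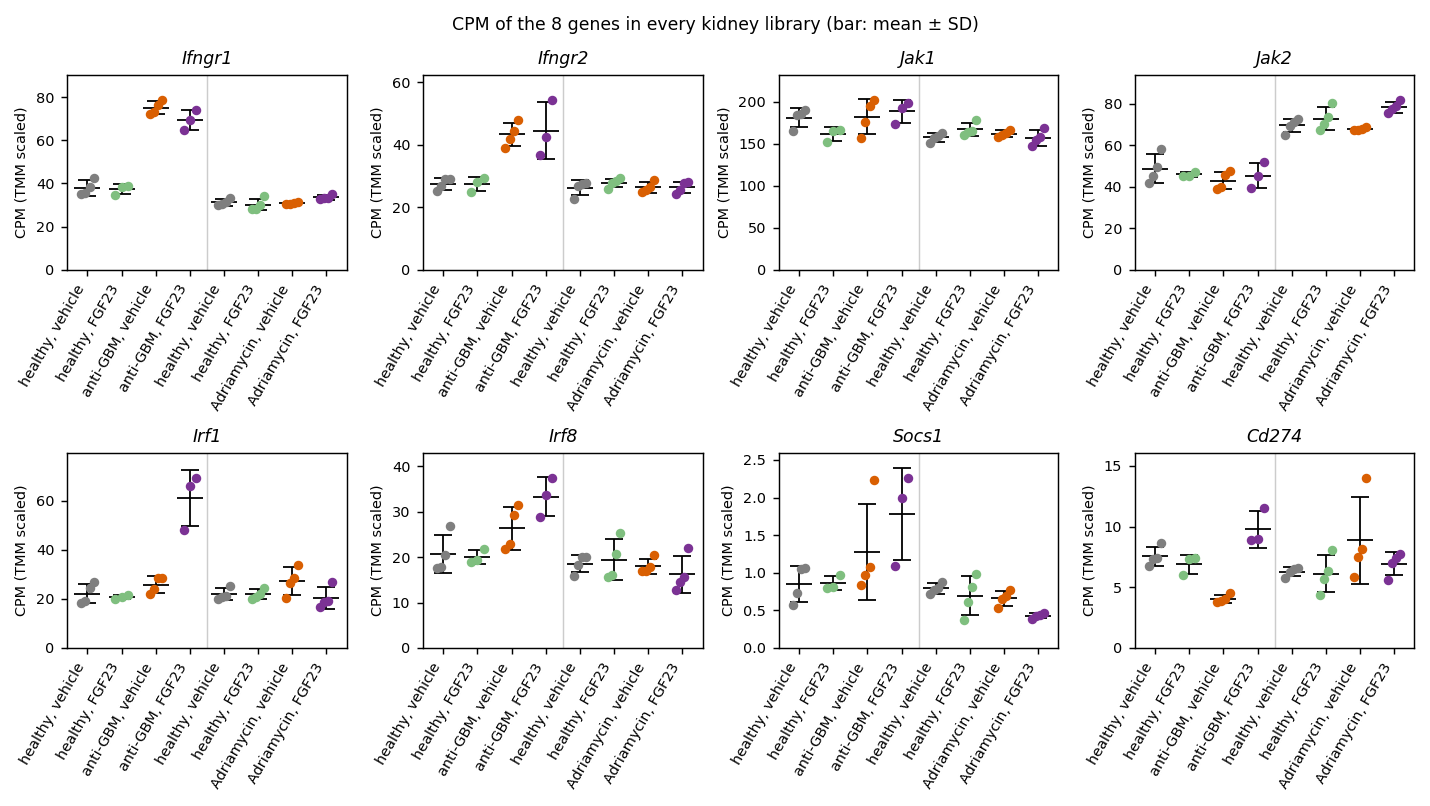
CPM of each gene in every whole-kidney library, 1 point per mouse, with the mean and SD of each group as bars. The left 4 groups of each panel are the anti-GBM experiment and the right 4 the Adriamycin experiment. Ifngr1 is at 64.7 to 78.7 CPM in all anti-GBM mice and at most 42.7 CPM in the healthy mice beside them, while Cd274 is at 3.80 to 4.50 CPM in anti-GBM mice given vehicle.

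The other genes of the pathway were taken from 5 lists chosen with earlier results of these data known. The lists held 58 genes, of which 54 were tested in this experiment. In the disease comparison under vehicle 28 were called higher and 3 lower, where 39.8% of all tested genes were called, 19.4% higher and 20.4% lower. The receptor and kinase relatives and the signal transducers and brakes were called at about that total share. Over the 54 tested genes of the 5 lists the median log2 fold change was 0.44, against -0.01 over all tested genes. Of the receptor and kinase relatives 3 of 7 were called, all higher, led by Jak3 (log2 fold change 0.74 ± 0.11 SE, adjusted p = 0.00021), a kinase of leukocytes. Of the 10 signal transducers and brakes 3 were called higher, led by Stat3 (1.06 ± 0.12, adjusted p = 2.69e-05), and 1 lower, Pias1 (-0.23 ± 0.05, adjusted p = 0.00428). Socs3, a relative of Socs1 that is named here after its values were seen, rose from 2.76 ± 0.933 to 44.7 ± 31.1 CPM (SD, n = 4 each; log2 fold change 4.02 ± 0.47 SE, adjusted p = 3.42e-05).

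Of the 8 further transcription factors 2 were called, both higher, led by Irf7 (log2 fold change 1.00 ± 0.15 SE, adjusted p = 0.000194), a factor of the antiviral response. That is no larger a share than the 39.8% of all tested genes called, of which 19.4% were higher and 20.4% lower. Of the 21 tested targets of interferon-gamma 14 were called higher and 0 lower, and their median log2 fold change was 0.64. H2-D1, a class I antigen-presenting molecule that shares reads with close copies, led them (0.90 ± 0.08 SE, adjusted p = 4.73e-06). All 8 tested checkpoint genes were called, 6 higher and 2 lower. Cd86, a costimulator on antigen-presenting cells, led the former (1.43 ± 0.22 SE, adjusted p = 0.000234). The 2 that fell were Cmtm6 (-0.77 ± 0.14 SE, adjusted p = 0.000721) and, named after its values were seen, Cmtm4 (-0.54 ± 0.10 SE, adjusted p = 0.00116), whose proteins are known to keep PD-L1 from being degraded. Pdcd1lg2, which encodes the other PD-1 ligand, had 0 to 3 counts per whole-kidney library and was not tested there.

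Other anti-GBM mice received FGF23 daily for 6 days, and their comparison with the anti-GBM mice given vehicle is 1 of those by which the genes were chosen. Under FGF23, Irf1 and Cd274 were the 2 of 8 genes called, both higher, where 0.24% of all tested genes were called and 0.233% called higher. Irf1 was at 21.9, 24.2, 28.5 and 28.6 CPM in the 4 anti-GBM mice given vehicle and at 66.0, 69.0 and 48.0 CPM in the 3 given FGF23. The groups did not overlap, and the level was 2.37-fold higher (log2 fold change 1.24 ± 0.15 SE). Cd274 was at 4.03, 4.50, 3.80 and 3.88 CPM under vehicle and at 8.88, 11.5 and 8.95 CPM under FGF23. These groups did not overlap either, and the level was 2.41-fold higher (log2 fold change 1.27 ± 0.14 SE). The mouse NTS14 had the highest Irf1, Irf8 and Cd274 of its group.

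The receptor chains and kinases had log2 differences close to 0 in this comparison: -0.11 ± 0.08 for Ifngr1, 0.04 ± 0.12 for Ifngr2, 0.05 ± 0.09 for Jak1 and 0.08 ± 0.12 for Jak2 (SE). Irf8 was at 29.3, 31.5, 22.8 and 21.7 CPM under vehicle and at 33.7, 37.3 and 28.9 CPM under FGF23, with overlapping groups and a log2 difference of 0.34 ± 0.16 (SE). Socs1, with 22 to 47 counts per FGF23 library, had a log2 difference of 0.50 ± 0.35 (SE) and also overlapped. Of the 21 interferon-gamma targets 11 were called higher and 0 lower, with a median log2 difference of 0.67, led by the peptide transporter gene Tap1 (1.08 ± 0.12 SE). Over all 5 lists 14 of 54 were called, all higher, where 0.233% of all tested genes were called higher. The lists were chosen with earlier results of these data known, so these counts are given as a description.

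The summed level of all 27 leukocyte markers, most of it from macrophage and monocyte genes, overlapped between these groups, at 221 to 332 CPM under vehicle and 313 to 335 CPM under FGF23. The sum of the 6 dendritic cell markers did not overlap, at 19.7 to 36.2 CPM under vehicle and 37.05 to 40.2 CPM under FGF23. Nor did that of the 7 T and NK cell markers, at 6.04 to 11.6 and 11.9 to 13.2 CPM, so both sums moved with Irf1 and Cd274. The sum of the 3 neutrophil markers had a median of 8.46 CPM under vehicle and 3.12 CPM under FGF23, with overlap. Of the 23 tested leukocyte markers 19 had a log2 difference above 0, beside 49.7% of all tested genes, with a median of 0.42. Of these 23 markers 0 were called by edgeR and 0 by DESeq2. By edgeR 5 had an unadjusted p below 0.05, beside 12.6% of all tested genes. They were 2 macrophage and monocyte markers, 2 neutrophil markers, both lower, and 1 B and plasma cell marker. Of the single dendritic cell and T and NK cell markers 0 were among them. The pan-leukocyte gene Ptprc was at 12.9 to 30.7 CPM under vehicle and at 33.7 to 38.8 CPM under FGF23, without overlap. The vehicle-treated mouse with the highest leukocyte sum, 332 CPM, had 4.50 CPM of Cd274 and 24.2 CPM of Irf1, below all 3 mice given FGF23. Its Ptprc, 28.4 CPM, and its dendritic cell and T and NK cell sums were also below theirs. The part of leukocyte number in the FGF23 differences was not tested.

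**Figure D3:**
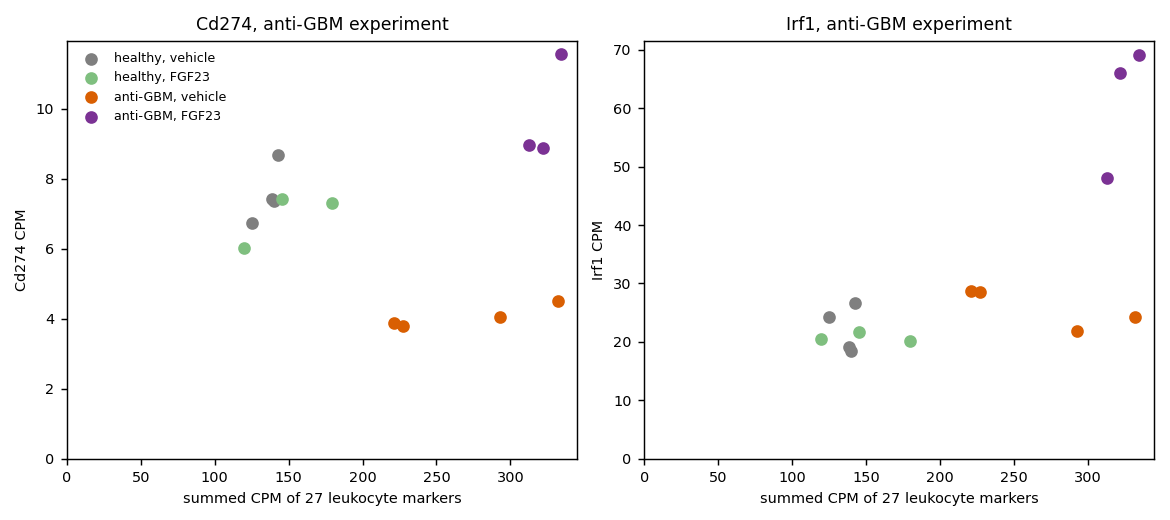
Cd274 (left) and Irf1 (right) in CPM against the summed CPM of 27 leukocyte markers, 1 point per mouse of the anti-GBM experiment, coloured by group. The anti-GBM mice given vehicle and FGF23 overlap on the axis of this total (221 to 332 and 313 to 335 CPM), though not in its dendritic cell and T and NK cell parts, and do not overlap on the gene axis, where Cd274 is at 3.80 to 4.50 and at 8.88 to 11.5 CPM.

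In healthy mice of this experiment none of the 8 genes was called under FGF23. The count was 0 by edgeR and by DESeq2, 0 had an unadjusted p below 0.05, and 0% of all tested genes were called, with 4.34% at an unadjusted p below 0.05. The log2 differences ran from -0.17 for Jak1 to 0.02 for Socs1, with Irf1 at -0.09 ± 0.15 and Cd274 at -0.13 ± 0.14 (SE). The difference between the FGF23 effects in diseased and healthy mice, the interaction, called 1 of the 8 genes, Cd274, higher in disease by 1.40 ± 0.20 (SE) on the log2 scale. Its call was lost when any library but NTS1 or NTS16 was left out, with values of 1.25 to 1.45. For Irf1 the value was 1.33 ± 0.21 (SE) without a call in this fit. Both Cd274 and Irf1 were called with DESeq2, without a count filter, and without NTS16. Of all tested genes edgeR called 0.0315% in the interaction, all of them higher, which were 5 genes, where DESeq2 called 44.

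Read against healthy mice that also received FGF23, the diseased mice given FGF23 had higher levels of 5 of the 8 genes, Ifngr1, Ifngr2, Irf1, Irf8 and Cd274, where 27.2% of all tested genes were called and 14.5% called higher. These libraries belong to the comparisons by which the genes were chosen. The log2 differences of the receptor chains were 0.90 ± 0.09 for Ifngr1 and 0.69 ± 0.13 for Ifngr2 (SE), beside 0.99 and 0.65 under vehicle. Irf1 averaged 20.8 ± 0.854 CPM in healthy and 61.0 ± 11.4 CPM in diseased mice, and Irf8 19.97 ± 1.59 and 33.3 ± 4.25 CPM (SD, n = 3 each). Cd274 was at 7.41, 6.01 and 7.31 CPM in the healthy and at 8.88, 11.5 and 8.95 CPM in the diseased mice, a log2 difference of 0.50 ± 0.15 (SE). Its disease difference was thus below 0 under vehicle and above 0 under FGF23. The call of Cd274 under FGF23 was lost without the healthy mouse NTS10 (0.41) or without the diseased mouse NTS14 (0.38).

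In the Adriamycin experiment no gene of the 8 passed the test. Of the 8 genes 0 were called by edgeR or by DESeq2 in any of its 5 comparisons. Of all 16020 tested genes 0.331% were called for disease under vehicle, 0.699% for disease under FGF23, 0.0375% for FGF23 in diseased mice, 0% for FGF23 in healthy mice and 0% for the interaction. At an unadjusted p below 0.05 stood 2 members for disease under vehicle, 2 for disease under FGF23, 4 for FGF23 in diseased mice, 0 for FGF23 in healthy mice and 1 for the interaction. Over all tested genes the shares at that threshold were 8.27%, 12.7%, 5.69%, 6.69% and 5.11% in the same order.

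Neither receptor chain was called for Adriamycin disease. Ifngr1 averaged 31.2 ± 1.49 CPM in healthy and 30.8 ± 0.466 CPM in diseased mice given vehicle (SD, n = 4 each), a log2 difference of -0.02 ± 0.06 (SE; adjusted p = 0.968). For Ifngr2 the log2 difference was 0.01 ± 0.07 (SE; adjusted p = 0.988). The experiments were fitted separately, and the difference between their disease effects was not tested.

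Cd274 and Irf1 were spread widely among the Adriamycin mice given vehicle. Cd274 was at 6.26, 6.62, 5.78 and 6.47 CPM in the healthy mice and at 13.98, 7.48, 8.13 and 5.84 CPM in the diseased mice. The mouse Ad5 was highest and Ad8 lay within the healthy range, and the log2 difference of 0.50 ± 0.22 (SE) did not pass (adjusted p = 0.561). Without Ad5 it was 0.19. Irf1 was at 20.7, 21.01, 20.1 and 25.4 CPM against 33.8, 28.6, 26.4 and 20.3 CPM, in the same order of mice, with a log2 difference of 0.33 ± 0.15 (SE; adjusted p = 0.575). The leukocyte marker sum did not separate these groups, at 164 to 212 CPM in healthy and 123 to 183 CPM in diseased mice. Of the 21 tested interferon-gamma targets 0 were called by edgeR and 2 by DESeq2, 14 had an unadjusted p below 0.05, and the median log2 difference was 0.33 against 0.00 over all genes. The 1 called gene of all 5 lists was the transcription factor gene Irf5, lower by -0.85 ± 0.16 on the log2 scale (SE; adjusted p = 0.0376).

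After 1 injection of FGF23 the diseased Adriamycin mice had lower values of the targets than under vehicle, without a call. Irf1 was at 16.7, 18.9, 19.1 and 27.05 CPM under FGF23 against 33.8, 28.6, 26.4 and 20.3 CPM, a log2 difference of -0.42 ± 0.15 (SE; adjusted p = 0.78). Cd274 was at 5.60, 6.99, 7.70 and 7.45 CPM under FGF23, a log2 difference of -0.36 ± 0.22 (SE; adjusted p = 0.951), and without the vehicle-treated mouse Ad5 this was -0.04. Socs1 was at 0.655, 0.688, 0.774 and 0.536 CPM under vehicle and at 0.467, 0.439, 0.428 and 0.385 CPM under FGF23. These groups did not overlap, but they rested on 6 to 18 counts per library, and the log2 difference of -0.62 ± 0.27 (SE) had an adjusted p of 0.862. Irf8 overlapped, with a log2 difference of -0.16 ± 0.16 (SE; adjusted p = 0.991). All 21 tested interferon-gamma targets had a log2 difference below 0, from -0.76 to -0.08 with a median of -0.32, and 0 were called by edgeR or DESeq2, with 5 at an unadjusted p below 0.05.

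Jak2 had the smallest p of the 8 genes in that comparison. It stood at 67.2, 67.3, 67.9 and 68.6 CPM under vehicle and at 81.7, 77.6, 75.3 and 78.7 CPM under FGF23. The groups did not overlap, the log2 difference was 0.21 ± 0.05 (SE), and the adjusted p was 0.335, with a range of 0.0828 (DESeq2) to 0.75 over the alternatives. Ifngr1 also did not overlap, at 30.3 to 31.4 CPM under vehicle and 32.9 to 35.3 CPM under FGF23, with a log2 difference of 0.12 ± 0.06 (SE; adjusted p = 0.869). Ifngr2 and Jak1 overlapped, with log2 differences of -0.01 ± 0.07 and -0.04 ± 0.05 (SE). The remaining comparisons of the experiment had log2 differences of the 8 genes from -0.16 to 0.09 for FGF23 in healthy mice, from -0.71 to 0.17 for disease under FGF23 and from -0.47 to 0.17 for the interaction.

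**Figure D4:**
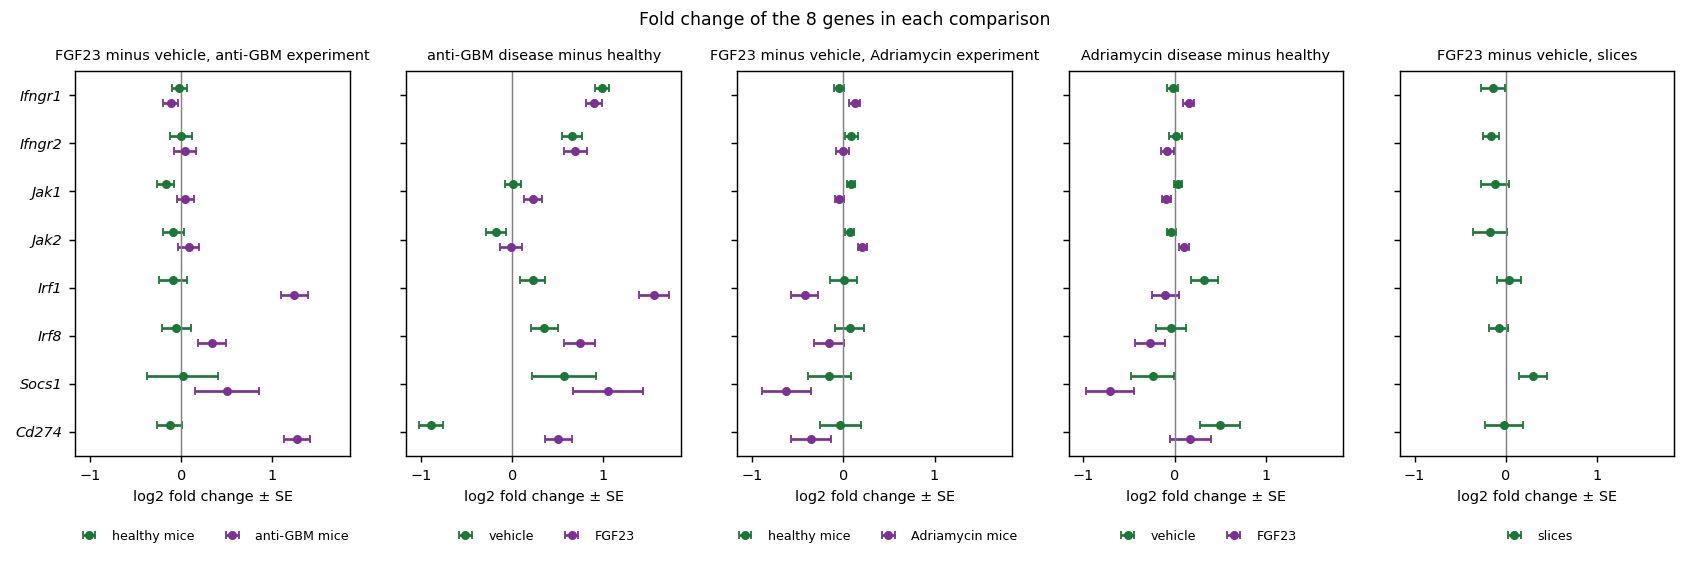
Log2 fold change of each gene with its SE, from edgeR, in 9 comparisons: FGF23 against vehicle and disease against healthy in the anti-GBM and Adriamycin experiments, and FGF23 against vehicle in the slices. Cd274 is at -0.89 for anti-GBM disease under vehicle and at 1.27 for FGF23 in anti-GBM mice. It is at -0.36 for FGF23 in Adriamycin mice (-0.04 without the mouse Ad5) and at -0.01 in the slices, neither of them called.

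Beside each other, the FGF23 differences of diseased mice were 1.24 ± 0.15 in anti-GBM and -0.42 ± 0.15 in Adriamycin mice for Irf1, and 1.27 ± 0.14 and -0.36 ± 0.22 for Cd274 (log2, SE). In the Adriamycin mice neither gene was called and the groups overlapped for both. Without the vehicle-treated mouse Ad5 the Adriamycin value of Cd274 was -0.04. Dose number, strain and sex differed between the experiments, and the difference was not tested.

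In the slices no gene of the pathway was called under FGF23. Of the 8 genes 0 were called by edgeR or DESeq2 and 0 had an unadjusted p below 0.05, while 0% of all 15090 tested genes were called and 4.89% had an unadjusted p below 0.05. Cd274 was at 106, 59.8, 108 and 78.5 CPM in the 4 vehicle cultures and at 60.2, 101, 82.6 and 104 CPM in the 4 FGF23 cultures, a log2 difference of -0.01 ± 0.21 (SE; adjusted p = 0.991). Irf1 averaged 134 ± 24.9 and 137 ± 13.4 CPM (SD, n = 4 each), a log2 difference of 0.04 ± 0.13 (SE; adjusted p = 0.965). The largest log2 difference was that of Socs1, 0.30 ± 0.15 (SE; adjusted p = 0.849), at 5.85 to 8.27 CPM under vehicle and 7.66 to 9.53 CPM under FGF23. The others ran from -0.17 for Jak2 to -0.07 for Irf8. Pdcd1lg2, with 8 to 39 counts per culture, had a log2 difference of -0.50 ± 0.34 (SE; adjusted p = 0.849). Of the 56 tested genes of the 5 lists 0 were called by edgeR or DESeq2, and 3 had an unadjusted p below 0.05.

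The slices held more of every member than the whole kidneys did. Vehicle cultures had 88.1 ± 23.2 CPM of Cd274 (SD, n = 4), against 4.05 ± 0.313 CPM in anti-GBM and 8.86 ± 3.55 CPM in Adriamycin mice given vehicle (SD, n = 4 each). For Irf1 these values were 134 ± 24.9, 25.8 ± 3.33 and 27.3 ± 5.56 CPM, and for Socs1 6.90 ± 1.02, 1.28 ± 0.642 and 0.663 ± 0.0984 CPM. The slices also had 487 to 600 CPM of the leukocyte markers and 1888 to 4248 CPM of the tubular markers under vehicle, and 407 to 574 and 3136 to 6362 CPM under FGF23. The experiments were scaled separately, so these levels are set side by side without a test.

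**Figure D5:**
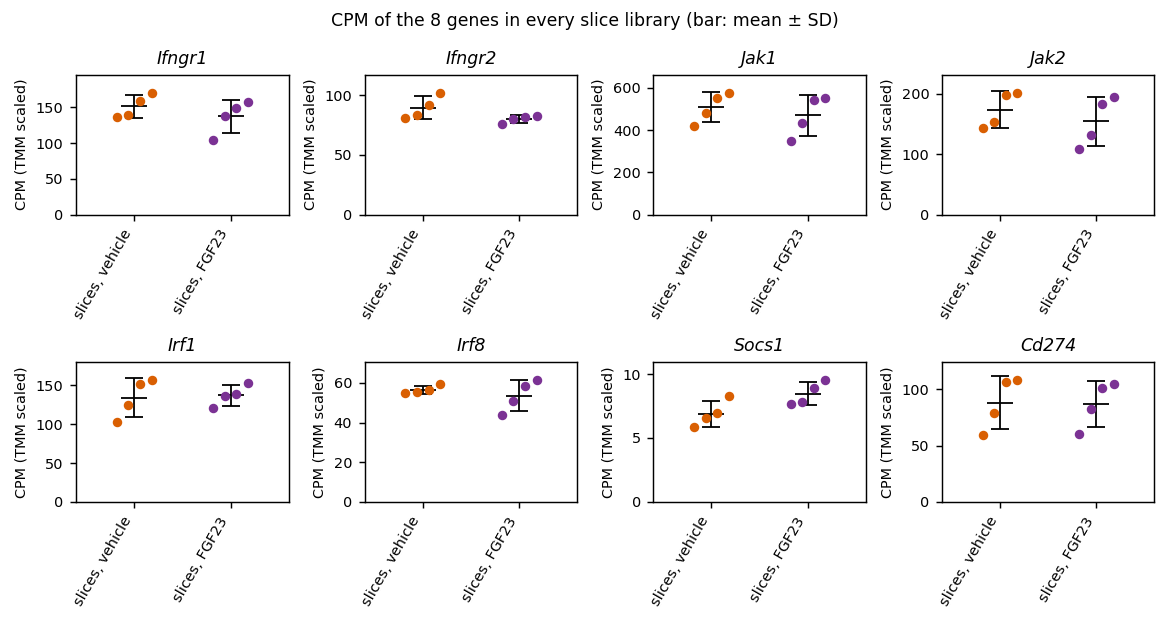
CPM of each gene in every slice culture, 1 point per library, with the mean and SD of the vehicle and FGF23 groups as bars. The groups overlap for all 8 genes, with Cd274 at 59.8 to 108 CPM under vehicle and 60.2 to 104 CPM under FGF23.

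To see which genes varied most like the 4 target genes from library to library, the mean of each group was subtracted from log2 CPM and the deviations were correlated over the 38 libraries, among 13974 genes tested in all 3 experiments. These correlations are descriptions over libraries that share depth and composition effects. For Cd274 the nearest genes were Iigp1 (r = 0.83, rho = 0.77), Gbp4 (r = 0.78, rho = 0.72) and Tgtp2 (r = 0.77, rho = 0.68), all of which encode interferon-inducible GTPases and belong to families of close copies, so that their own counts are uncertain. For Irf1 they were H2-Q4 (r = 0.75, rho = 0.72), Irf9 (r = 0.68, rho = 0.71) and H2-Q5 (r = 0.68, rho = 0.63), of which H2-Q4 and H2-Q5 are class I genes that share reads with their copies. Those of Irf8 were Akna (r = 0.83, rho = 0.84), Gimap3 (r = 0.79, rho = 0.82) and Trpm2 (r = 0.76, rho = 0.78), genes known for expression in leukocytes. Socs1, the least abundant, was nearest to Noc2l (r = 0.68, rho = 0.54), Fance (r = 0.66, rho = 0.53) and Mustn1 (r = 0.66, rho = 0.62).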

How the data were processed

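RNA-Seq counts of 38 mouse libraries were analysed. Per the labels and the paper, the authors prepared stranded mRNA libraries and deposited raw read counts per Ensembl gene, made with bcl2fastq 2.20.0, FastQC 0.11.8, STAR 2.7.9a on GRCm38 and featureCounts 1.5.1, without normalization. Whether strand was used in counting is not given in the sources used here.

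Groups came from the labels; columns of the mouse libraries were tied to groups through their names and the headers of the study's count tables. The column whose prefix is 14 and whose suffix is NTS4 was taken as the anti-GBM FGF23 mouse NTS14. Columns not used numbered 0. All 54 pairs of replicates differed beyond counting noise (chi-square of at least 2.02 for each degree of freedom).

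Each experiment was fitted with edgeR 4.0.16 (R 4.3.3) in 1 quasi-likelihood fit of all its groups, with TMM scaling, filterByExpr at a minimum count of 10 and Benjamini-Hochberg adjustment over all tested genes of a comparison. A gene was called at an adjusted p below 0.05. The study used DESeq2, run here as an alternative (1.42.0), with RLE scaling, no count filter, only the groups compared, a log2 fold change above 1, the culture number as a replicate block in the slices, and leaving out single libraries. Log2 CPM used a prior count of 2. Exon lengths were from GENCODE M21 (GRCm38), and promoters from RefSeq, which held all 8 genes. The script was tested on simulated data. P-values set a difference between groups against the spread between these libraries, which are mice in the animal experiments and cultures in the slices.

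The 8 genes, the lists and the motifs were chosen with earlier results of these data known. Named are the 8 genes, Ifng and Pdcd1lg2, the called gene with the smallest p in each direction of each list per tested comparison, and the 3 genes most like each target gene. Marker lists were summed per library. 1 further gene that the rule names is not reported here.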

Additional observations from a re-analysis of the deposited data

Results flagged for a closer look

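The FGF23 effect on Cd274 differed between diseased and healthy mice of the anti-GBM experiment: the interaction was 1.40 on the log2 scale in edgeR's quasi-likelihood fit (SE 0.20). In healthy mice Cd274 averaged 7.54 ± 0.813 CPM under vehicle (SD, n = 4) and 6.91 ± 0.784 CPM under FGF23 (SD, n = 3), and in anti-GBM mice 4.05 ± 0.313 CPM (SD, n = 4) and 9.79 ± 1.52 CPM (SD, n = 3). The genes were selected on this experiment, so the value is a description.

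Among the groups of 4 libraries, 64 sets of values of the 8 genes were examined for a library far from the others, and chance marks about 1 in 20. In 1 set a library stood apart: the FGF23-treated Adriamycin mouse Ad16 had 35.3 CPM of Ifngr1, against 32.9 to 33.2 CPM in the other 3 mice of its group.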

How the results depend on the processing

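No fold change of a called gene changed sign under any alternative. A fold change counted as unchanged if it stayed called, or if it stayed uncalled and moved by less than its SE. Of the fold changes under other scaling, filtering, testing or grouping 331 were unchanged and 4 gained a call. Of those with a library left out 1226 were unchanged, 14 lost a call and 6 gained one. A further 18 stayed uncalled but moved beyond their SE. In the anti-GBM interaction 1 of the 8 genes was called, 2 without a count filter, 2 with DESeq2 and 0 to 2 with a library left out. Where 2 were called they were Cd274 and Irf1. For anti-GBM disease 3 were called under vehicle and 5 under FGF23, 0 and 1 with an absolute log2 fold change above 1, and 3 to 4 and 4 to 7 with a library left out. The 8 genes were chosen on the interaction and on disease under FGF23, so these counts are no sign of stability there.

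Over all genes edgeR and DESeq2 called 38 and 153 for FGF23 in anti-GBM mice, 5 and 44 for the anti-GBM interaction, 0 and 16 for FGF23 in healthy mice of the Adriamycin experiment, 6 and 35 for FGF23 in Adriamycin mice, 0 and 4 for that interaction, 53 and 155 for Adriamycin disease under vehicle, 112 and 263 under FGF23, and 0 and 2 in the slices. Across the other settings the lowest counts were 12, 3, 0, 3, 0, 19, 43 and 0 in the same order. The cause was not tested. With a library left out the counts were 12 to 49 for FGF23 in anti-GBM mice (12 without NTS13, 17 without NTS14, 21 without NTS5 or NTS8), 0 to 14 for that interaction (14 without NTS16, 7 without NTS1, 1 without NTS2, 0 without any other), 1 to 12 for FGF23 in Adriamycin mice (1 without Ad14 or Ad15, 2 without Ad6 or Ad7, 3 without Ad8, 11 without Ad13, 12 without Ad16), 10 to 100 for Adriamycin disease under vehicle (10 without Ad3 or Ad7, 12 without Ad1, 13 without Ad5 or Ad8, 100 without Ad6) and 21 to 119 under FGF23 (21 without Ad14, 33 without Ad15, 50 to 65 without Ad9, Ad10, Ad11 or Ad16). Counts of 0 became 1 without NTS9 for FGF23 in healthy mice of the anti-GBM experiment, 4 without Ad12 in those of the Adriamycin experiment and 1 without Ad16 for that interaction. The background shares rest on these counts. For anti-GBM disease they stayed within 4978 to 6299 under vehicle and 2888 to 4770 under FGF23.

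With the culture number as a replicate block 0 of the 8 genes were called in the slices, as without it, and 0 of all genes. Same-numbered cultures had correlated deviations of 0.11, 0.10, -0.11 and 0.11, and vehicle culture 3 correlated best with FGF23 culture 1 (0.12), so the numbers were not taken as pairs. Depth limits Socs1, with 6 to 47 counts per whole-kidney library, and leaves Ifng and, in whole kidneys, Pdcd1lg2 untested.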
